A study of Mus musculus with 6 samples.

Results

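The 10 genes described here are components of the Wnt pathway, namely the ligands Wnt4, Wnt5a, Wnt7b and Wnt10a, the receptor genes Fzd6, Lrp6 and Lgr4, the feedback gene Axin2, and the transcription factor genes Lef1 and Tcf7l2. They were taken by symbol from a table of 24498 genes, where all 10 were found, and all 10 passed the filter on low counts. RNA was sequenced in bulk from fluorescent cells sorted from the digested prostates of male mice. The design holds 3 groups.

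Clu intact cells came from the Clu;tdTomato model, which joins the Clu-CreER(T2) allele to a ROSA26 reporter of the red fluorescent protein tdTomato. The driver is named for Clu, which encodes the secreted chaperone clusterin. Nkx castrate and Nkx intact cells came from the Nkx3.1;EYFP model, which joins the Nkx3.1-CreER(T2) allele to a ROSA26 reporter of the yellow fluorescent protein EYFP. Castration was done at 8 weeks of age, and tissue was taken 4 weeks afterwards in all groups, intact ones included. The mice of the study were 7 to 13 weeks old. All 3 groups thus carry an inducible Cre and a reporter, and the Clu and Nkx groups differ in driver and reporter as well as in the cells marked. A marked cell is one in which the driver was active at induction, or a descendant of it, and the labels do not give the time of induction. Each group held 2 libraries, named by group and replicate number. Whether these came from separate animals is not stated, so the p-values reflect variation among libraries that may be technical.

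Wnt ligands are secreted, lipid-modified proteins that bind Frizzled receptors together with the co-receptors Lrp5 or Lrp6. In the canonical branch this binding stabilises beta-catenin, which enters the nucleus and drives target genes through Tcf and Lef factors. Axin2 is such a target and also a scaffold of the complex that degrades beta-catenin, so it acts as a negative feedback. Signalling from R-spondin through Lgr receptors keeps Frizzled proteins at the cell surface by removing the ubiquitin ligases Rnf43 and Znrf3. Beta-catenin can also bind the androgen receptor, and Wnt signalling takes part in the budding and growth of the prostate epithelium.

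The libraries held between 10220118 and 17412874 counts assigned to genes. Levels are given in CPM, read counts scaled to a common library size by the TMM method, and 1 count was between 0.0561 and 0.0988 CPM. The epithelial genes Epcam and Krt8 were present in every library, at 336 to 839 CPM and 705 to 2558 CPM. Clu stood at 1808 and 1934 CPM in the Clu intact libraries, 721 and 844 CPM in the Nkx castrate libraries and 323 and 245 CPM in the Nkx intact libraries. RNA of other cell types was present in all libraries and varied between them. Nkx castrate 1 stood apart: its summed level of 14 markers of fibroblasts and smooth muscle was 2524 CPM. The same sum was 703 to 1119 CPM over the intact libraries and 598 CPM in Nkx castrate 2. Its members differed in Nkx castrate 1, where Myh11 had 923 CPM, Dcn 426 CPM and Pdgfra 79.1 CPM, each above every other library. Lum, Pdgfrb, Fbln1, Acta2, Des, Tagln and Cnn1 were also highest there, and Vim was exceeded only by Clu intact 1. The collagen genes Col1a1, Col1a2 and Col3a1 had 46.3, 46.0 and 45.3 CPM in Nkx castrate 1, below every intact library. Wnt5a, Wnt7b, Fzd6, Axin2 and Lef1 share exon bases with a gene on the opposite strand, and their counts are uncertain to that extent. In bulk RNA, fewer cells of a type and less RNA per cell cannot be told apart.

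A gene was called when the Benjamini-Hochberg adjusted p of edgeR's quasi-likelihood test, fitted on all 13846 genes that passed the filter, was under 0.05. Of the 10 Wnt genes, 3 were called in at least 1 comparison. Wnt4 was higher in Clu intact than in either Nkx group, Wnt7b was higher in Clu intact than in Nkx intact, and Axin2 was lower in Clu intact than in Nkx castrate. The other 7 were not called in any comparison. The share of all tested genes called in at least 1 comparison was not counted.

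The counts per comparison stand beside those of all tested genes. Between Nkx castrate and Nkx intact, edgeR called 0 of the 10, where 8.61% of all tested genes were called, 4.02% higher and 4.59% lower. At an unadjusted p under 0.05 there were 3 (Wnt7b, Axin2 and Tcf7l2), while DESeq2 called 1 (Axin2) and limma-voom 0. The number under that unadjusted p was also 3 of the 10 in Clu intact against Nkx intact and in Clu intact against Nkx castrate. The share of all tested genes under that unadjusted p was not counted, so the 3 cannot be set against the 8.61%. The median log2 fold change of the 10 was 0.31, against 0.05 over all tested genes. In Clu intact against Nkx intact, 2 of the 10 were called, both higher, where 11.3% of all genes were called, 6.29% higher and 5% lower. The median log2 fold change of the 10 was 0.145, against -0.008 over all genes. Against Nkx castrate, Clu intact had 2 called, 1 higher and 1 lower, where 16.9% of all genes were called, 8.82% higher and 8.1% lower. The median of the 10 was then -0.009, against -0.003 over all genes. The libraries of the groups did not overlap for 5, 8 and 6 of the 10 genes in the order of these comparisons, against 49.9%, 63.2% and 61.4% of all genes. The comparisons share groups, so their values are not independent of each other.

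**Figure D1:**
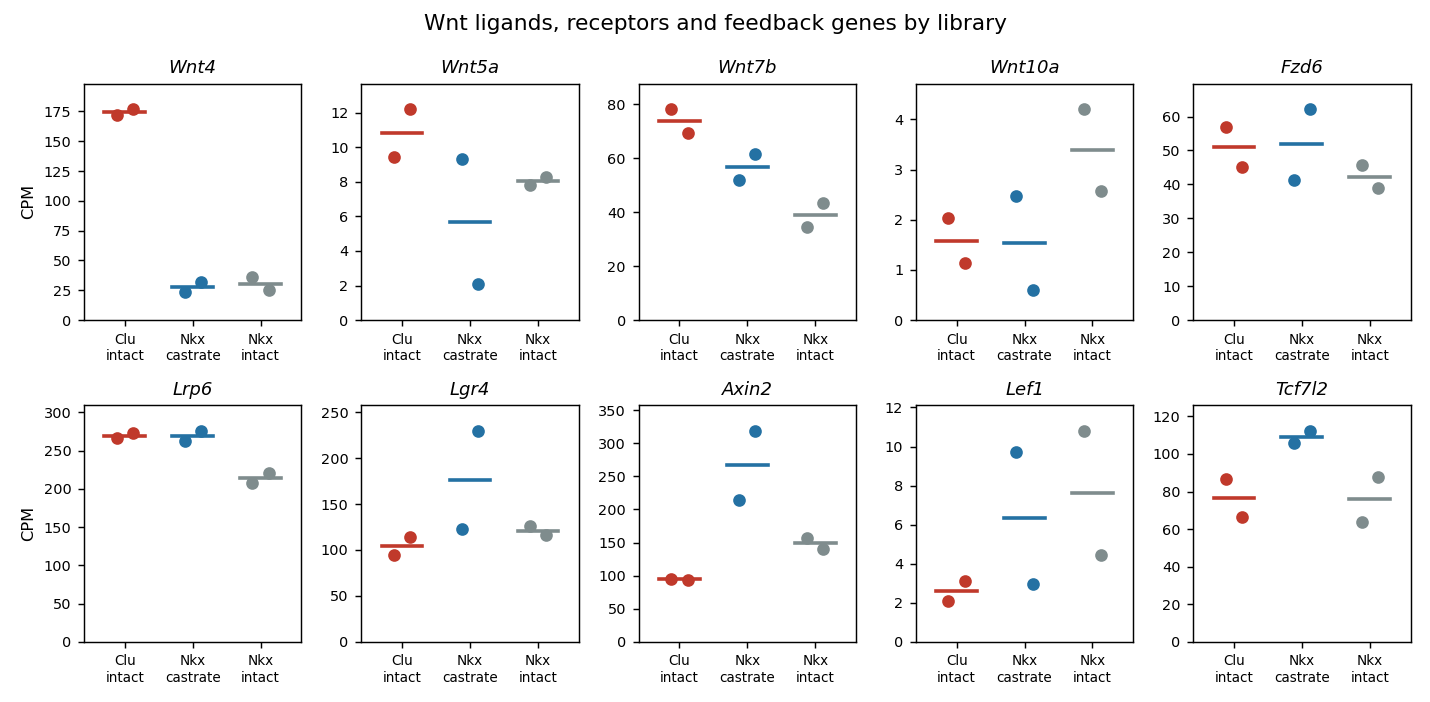
Levels of the 10 Wnt genes in CPM (vertical axes, each starting at 0) in the 2 libraries of each group, with each point a library and each bar the group mean. Wnt4 lies at 172 and 177 CPM in Clu intact and at no more than 35.8 CPM in the Nkx libraries, and Axin2 is lowest in Clu intact and highest in Nkx castrate.

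To compare levels between genes, CPM were divided by the length of each gene's combined exons in kb. On this scale Axin2 had the highest mean level of the 10 in both Nkx groups, with 48.5 ± 13.4 CPM per kb for Nkx castrate and 27.0 ± 2.05 CPM per kb for Nkx intact (SD, n = 2 each). Lgr4 was next in both, with 30.0 ± 12.8 CPM per kb for Nkx castrate and 20.6 ± 1.17 CPM per kb for Nkx intact (SD, n = 2 each). The Nkx castrate libraries of Axin2 and Lgr4 overlapped slightly, since the lower Axin2 library was at 39.0 CPM per kb and the higher Lgr4 library at 39.1 CPM per kb. In Clu intact the order was different, with Wnt4 first at 41.6 ± 0.877 CPM per kb and Lrp6 next at 19.7 ± 0.295 CPM per kb (SD, n = 2 each). Lgr4 (17.7 ± 2.28) and Axin2 (17.1 ± 0.236 CPM per kb, SD, n = 2 each) followed in Clu intact with ranges that overlapped each other. Wnt7b, Fzd6 and Tcf7l2 formed a middle range, with group means of 7.96 to 15.1, 8.77 to 10.8 and 8.64 to 12.4 CPM per kb. In Nkx intact, the libraries of Fzd6, Tcf7l2, Wnt7b and Wnt4 overlapped one another, so their order there is not resolved. Wnt5a, Wnt10a and Lef1 were the lowest, with no group mean above 1.39 CPM per kb.

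**Figure D2:**
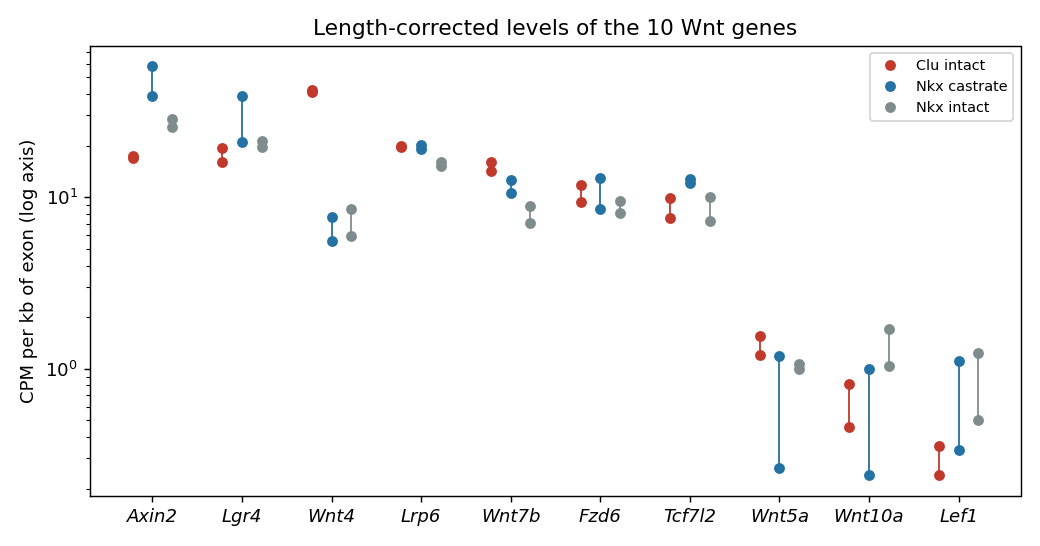
Levels in CPM per kb of combined exon (logarithmic vertical axis) of the 10 Wnt genes, ordered by their mean over all libraries, with each point a library and the line joining the 2 libraries of a group. Wnt5a, Wnt10a and Lef1 lie below the other 7 genes in every library, and Wnt4 is the gene whose place changes most between groups, at 41.6 CPM per kb in Clu intact, 6.61 in Nkx castrate and 7.23 in Nkx intact.

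Among the ligands, Wnt4, which signals through canonical and other branches depending on the tissue, gave the widest separation. It had 172 and 177 CPM in the Clu intact libraries, 23.5 and 32.0 CPM in the Nkx castrate libraries and 35.8 and 24.9 CPM in the Nkx intact libraries. Both Clu intact libraries were well above every Nkx library, and the Nkx groups overlapped. The level in Clu intact was 5.75-fold that in Nkx intact (log2 fold change 2.52, SE 0.24, edgeR Benjamini-Hochberg adjusted p = 0.00115) and 6.30-fold that in Nkx castrate (log2 fold change 2.65, SE 0.24, edgeR Benjamini-Hochberg adjusted p = 0.000708). The call held without each of the 6 libraries in turn, with a log2 fold change of 2.29 to 2.82 against Nkx intact and of 2.45 to 2.90 against Nkx castrate. Between Nkx castrate and Nkx intact the log2 fold change was -0.13, with a 95% interval of -0.69 to 0.43. Summed, the 11 markers of endothelium had 1136 and 463 CPM in the Clu intact libraries, 502 and 77.1 CPM in the Nkx castrate libraries and 86.6 and 63.3 CPM in the Nkx intact libraries. A single one of them, in Nkx intact 2, had no count. The 16 basal cell markers together had 4125 and 4184 CPM for Clu intact, 6951 and 4484 CPM for Nkx castrate and 6926 and 7016 CPM for Nkx intact. The sum of the 9 proximal luminal markers, Clu among them, was highest in Clu intact as Wnt4 was. They summed to 6181 and 6903 CPM for Clu intact, 1048 and 1221 CPM for Nkx castrate and 530 and 417 CPM for Nkx intact. Among them Ly6d went otherwise, with 2.36 and 3.95 CPM for Clu intact, 8.42 and 9.76 CPM for Nkx castrate and 1.91 and 0.593 CPM for Nkx intact. The part of these cell types in the Wnt4 values was not tested.

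The 250 bases before the start of Wnt4 are shown because this gene carried the widest separation. They lie on the plus strand of mouse build GRCm38.p6 at chr4:137277385-137277634 and were read from RefSeq.

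Wnt4 promoter: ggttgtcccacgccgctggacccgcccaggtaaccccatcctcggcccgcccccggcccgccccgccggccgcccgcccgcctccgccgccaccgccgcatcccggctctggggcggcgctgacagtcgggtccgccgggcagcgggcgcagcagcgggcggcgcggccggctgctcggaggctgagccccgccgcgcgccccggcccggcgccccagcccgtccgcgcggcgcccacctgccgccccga

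This stretch is 85.2% G or C and holds 44 CpG dinucleotides. A pair of 6-base words was searched on both strands of this and of every other promoter in the RefSeq table. The word for Tcf and Lef factors was CTTTGA or CTTTGT, found in 27.6% of 32841 promoter windows of the same length. The word for steroid receptors such as the androgen and progesterone receptors was AGAACA, an arm of their response element, found in 16.1% of the windows. The Wnt4 window held neither, which says only that these letters are not in it.

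Wnt7b, a canonical ligand made by many epithelia, showed a smaller difference in the same direction. Its level was 78.3 and 69.2 CPM in the Clu intact libraries, 51.8 and 61.7 CPM in the Nkx castrate libraries and 34.5 and 43.5 CPM in the Nkx intact libraries. No 2 groups overlapped, and the order was Clu intact, Nkx castrate, Nkx intact. Clu intact was 1.89-fold above Nkx intact (log2 fold change 0.92, SE 0.21, edgeR Benjamini-Hochberg adjusted p = 0.0312). That call was lost without any of the libraries Clu intact 1, Clu intact 2, Nkx intact 1 and Nkx intact 2, with an edgeR Benjamini-Hochberg adjusted p of up to 0.218. The neighbouring steps in the order were not called, with log2 fold changes of 0.38 (SE 0.21) for Clu intact over Nkx castrate and 0.54 (SE 0.21) for Nkx castrate over Nkx intact. The sum of 6 urothelial markers was also lowest in Nkx intact, with 353 and 393 CPM for Clu intact, 352 and 534 CPM for Nkx castrate and 123 and 155 CPM for Nkx intact, and 1 or 2 of the 6 had no count in each library. The 6 did not share a pattern. Upk3a had 146 and 197 CPM in Nkx castrate and at most 0.574 CPM elsewhere. Upk2 had 20.6 and 23.5 CPM in Clu intact and at most 2.37 CPM elsewhere. The part of these markers in the Wnt7b values was not tested.

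Wnt5a, mainly a ligand of the branches that do not use beta-catenin and often made by stroma, had 9.45 and 12.2 CPM in the Clu intact libraries, 9.32 and 2.07 CPM in the Nkx castrate libraries and 7.84 and 8.30 CPM in the Nkx intact libraries. Nkx castrate 2 was the lowest library and Nkx castrate 1 was close to the Clu intact libraries. No comparison was called with all libraries. Without Nkx castrate 1, Wnt5a was lower in Nkx castrate than in Nkx intact (log2 fold change -1.96, edgeR Benjamini-Hochberg adjusted p = 0.024) and higher in Clu intact than in Nkx castrate (log2 fold change 2.38, edgeR Benjamini-Hochberg adjusted p = 0.00618). Without Nkx castrate 2 these log2 fold changes were 0.20 and 0.23. Of these libraries, Nkx castrate 1 had the highest stromal marker sum, 2524 CPM, and Nkx castrate 2 the lowest, 598 CPM. Within that sum, Dcn, Lum, Pdgfra, Pdgfrb and Fbln1 were highest of all libraries in Nkx castrate 1, as was Myh11. Col1a1, Col1a2 and Col3a1 were lower in Nkx castrate 1 than in every intact library. All 14 stromal markers had counts in every library, and their part in the Wnt5a values was not tested.

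Wnt10a, a canonical ligand of skin appendages, had few reads. It had 24 and 12 counts in the Clu intact libraries, 44 and 8 counts in the Nkx castrate libraries and 44 and 26 counts in the Nkx intact libraries. The levels were 2.03 and 1.13 CPM for Clu intact, 2.47 and 0.591 CPM for Nkx castrate and 4.21 and 2.57 CPM for Nkx intact. Both Nkx intact libraries were above the others, the lower of them narrowly, but the widest log2 fold change, -1.13 for Nkx castrate over Nkx intact, had a 95% interval of -3.26 to 0.999 and was not called. Leaving out Nkx castrate 1 moved that value to -2.50, and leaving out Nkx castrate 2 moved it to -0.46.

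**Figure D3:**
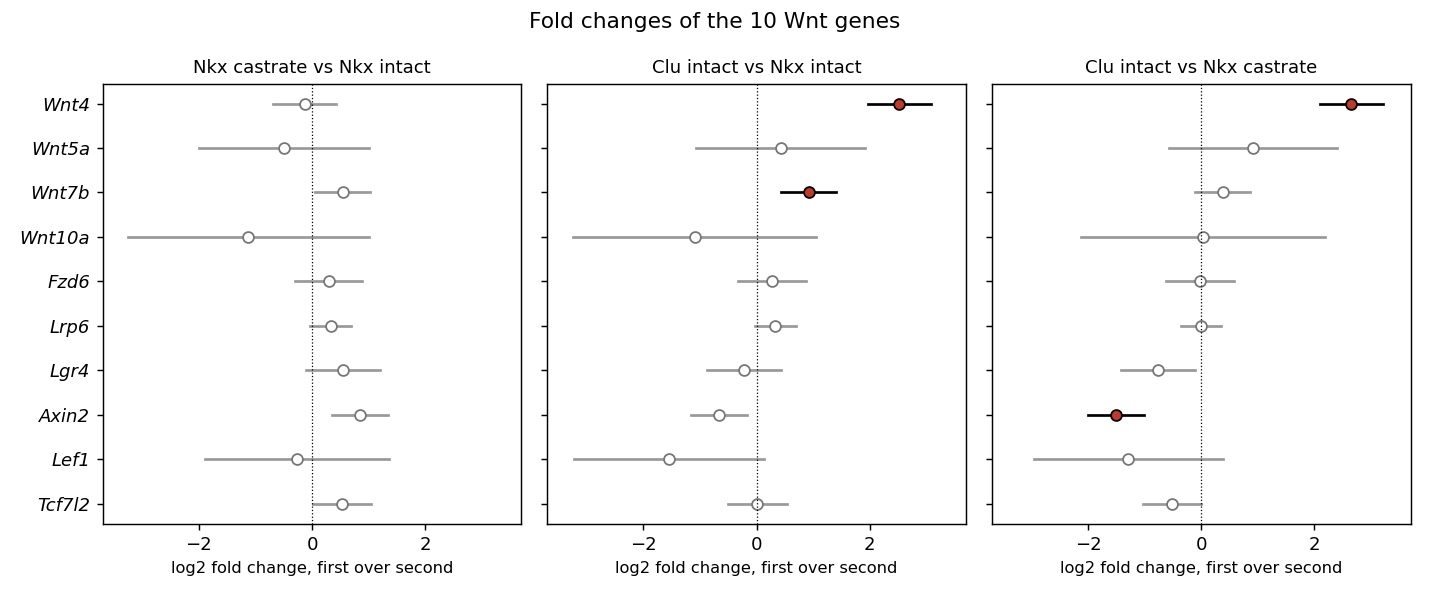
Log2 fold changes (horizontal axes, first-named group over second) of the 10 Wnt genes in the 3 comparisons, with 95% intervals as lines and called genes as filled points. The filled points are Wnt4 and Wnt7b for Clu intact over Nkx intact and Wnt4 and Axin2 for Clu intact over Nkx castrate, and none is filled for Nkx castrate over Nkx intact.

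None of the receptor genes was called with all libraries. Fzd6, a Frizzled receptor best known from hair patterning and planar polarity, had 57.0 and 45.3 CPM in the Clu intact libraries, 41.4 and 62.3 CPM in the Nkx castrate libraries and 45.6 and 38.9 CPM in the Nkx intact libraries. All 3 groups overlapped, and its log2 fold changes lay between -0.02 and 0.29. For Nkx castrate over Nkx intact the 95% interval ran from -0.30 to 0.89.

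Lrp6, the co-receptor that starts the canonical branch, had 267 and 273 CPM in the Clu intact libraries, 263 and 276 CPM in the Nkx castrate libraries and 208 and 220 CPM in the Nkx intact libraries. Both Nkx intact libraries were below all the others, and the Clu intact and Nkx castrate libraries overlapped. The log2 fold change over Nkx intact was 0.33 (SE 0.15) for Clu intact and 0.33 (SE 0.15) for Nkx castrate, neither of them called (edgeR Benjamini-Hochberg adjusted p = 0.224 and 0.25). For Clu intact over Nkx castrate the 95% interval of the log2 fold change ran from -0.36 to 0.36.

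Lgr4, a receptor for R-spondins, had 94.7 and 114 CPM in the Clu intact libraries, 123 and 230 CPM in the Nkx castrate libraries and 126 and 116 CPM in the Nkx intact libraries. Nkx castrate 2 was far above the other libraries, and Nkx castrate 1 lay within the range of Nkx intact. With all libraries no comparison was called, the closest being Clu intact over Nkx castrate (log2 fold change -0.76, SE 0.28, edgeR Benjamini-Hochberg adjusted p = 0.106). Without Nkx castrate 1 that comparison was called at a log2 fold change of -1.14, and Nkx castrate over Nkx intact was called at 0.93 (edgeR Benjamini-Hochberg adjusted p = 0.000618 and 0.00381). Both values then rest on Nkx castrate 2, which is assumed to vary like the other groups.

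Axin2 is the feedback gene of the set. Its levels were 95.3 and 93.5 CPM in the Clu intact libraries, 215 and 319 CPM in the Nkx castrate libraries and 157 and 141 CPM in the Nkx intact libraries. The groups did not overlap, with Nkx castrate highest and Clu intact lowest. Clu intact was 2.83-fold below Nkx castrate (log2 fold change -1.50, SE 0.21, edgeR Benjamini-Hochberg adjusted p = 0.0038). This call held without each of the 6 libraries in turn, with a log2 fold change of -1.76 to -1.18. Against Nkx intact, Clu intact had a log2 fold change of -0.66 (SE 0.21) that was not called (edgeR Benjamini-Hochberg adjusted p = 0.0956). That difference was called by DESeq2 (Benjamini-Hochberg adjusted p = 0.0366), and by edgeR without a filter or with only the groups compared (Benjamini-Hochberg adjusted p = 0.0262 and 0.00738). Nkx castrate over Nkx intact had a log2 fold change of 0.84 (SE 0.21) that lay just outside the threshold (edgeR Benjamini-Hochberg adjusted p = 0.0511). Across the other scalings, filters and tools, the adjusted p of that last difference ranged from 0.00212 to 0.114 in the edgeR, DESeq2 and limma-voom fits (Benjamini-Hochberg), at log2 fold changes of 0.81 to 0.88. Without Nkx castrate 1 it was called at 1.10 (edgeR Benjamini-Hochberg adjusted p = 0.00066), and Clu intact over Nkx intact was called at -0.65 without Nkx castrate 1 or Nkx castrate 2.

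The Axin2 window of the RefSeq table is shown since Axin2 is the pathway's own target among the called genes. It covers 250 bases of the plus strand of GRCm38.p6 at chr11:108920099-108920348, before a transcript start whose use was not measured. Capitals mark the steroid receptor word.

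Axin2 promoter: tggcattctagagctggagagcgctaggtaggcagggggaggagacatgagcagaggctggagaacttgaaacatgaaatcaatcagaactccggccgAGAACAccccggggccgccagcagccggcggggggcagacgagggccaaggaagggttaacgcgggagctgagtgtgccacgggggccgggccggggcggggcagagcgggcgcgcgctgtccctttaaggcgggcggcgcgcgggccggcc

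The steroid receptor word AGAACA begins 152 bases before the start, and the Tcf and Lef word did not occur in this window. It is 69.2% G or C with 24 CpG dinucleotides.

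Neither transcription factor gene was called with all libraries. Tcf7l2, a Tcf factor of many epithelia, had 86.8 and 66.4 CPM in the Clu intact libraries, 106 and 112 CPM in the Nkx castrate libraries and 63.9 and 87.7 CPM in the Nkx intact libraries. Both Nkx castrate libraries lay above all others, while Clu intact and Nkx intact overlapped. The log2 fold change was 0.53 (SE 0.22) for Nkx castrate over Nkx intact and -0.51 (SE 0.22) for Clu intact over Nkx castrate, and neither was called (edgeR Benjamini-Hochberg adjusted p = 0.201 and 0.155).

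Lef1, the related factor that is also expressed in lymphocytes and mesenchyme, was low, at 2.11 and 3.10 CPM in the Clu intact libraries, 9.71 and 2.96 CPM in the Nkx castrate libraries and 10.8 and 4.45 CPM in the Nkx intact libraries. Nkx castrate 1 and Nkx intact 1 were the high libraries, so the spread within each Nkx group was wide. With all libraries no Lef1 comparison was called. Clu intact over Nkx castrate was called only without Nkx castrate 2 among the 6 libraries (log2 fold change -1.89, edgeR Benjamini-Hochberg adjusted p = 0.0414), against -0.18 without Nkx castrate 1. Clu intact over Nkx intact had a log2 fold change of -1.55 with all libraries and -0.76 without Nkx intact 1. Nkx castrate over Nkx intact had -0.26 with all libraries, 0.50 without Nkx intact 1, and -1.36 or 0.34 when Nkx castrate 1 or Nkx castrate 2 was left out. The 15 leukocyte markers summed to 42.7 and 46.8 CPM in the Clu intact libraries, 458 and 100.2 CPM in the Nkx castrate libraries and 196 and 202 CPM in the Nkx intact libraries. The number of these markers without a count was 3 and 5 for Clu intact, 0 and 2 for Nkx castrate and 4 and 5 for Nkx intact. In Nkx intact 1, where Lef1 was highest, the T cell genes Cd3e and Cd3g had 2 and 0 counts, and 0 counts allow up to 0.287 CPM. The B cell gene Cd79a had 3 counts there, Ptprc, the gene of a protein of all leukocytes, had 50, and Cd74 had 927. In Nkx castrate 1, the other high library, Cd3e and Cd3g had 59 and 52 counts, Cd79a 14, Ptprc 345 and Cd74 4795. In Nkx castrate 2, Cd3e and Cd3g had 8 and 18 counts, Cd79a 0, Ptprc 34 and Cd74 942. The 14 fibroblast and smooth muscle markers summed to 1119 and 766 CPM for Clu intact, 2524 and 598 CPM for Nkx castrate and 844 and 703 CPM for Nkx intact. The part of leukocyte or stromal RNA in the Lef1 values was not tested.

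**Figure D4:**
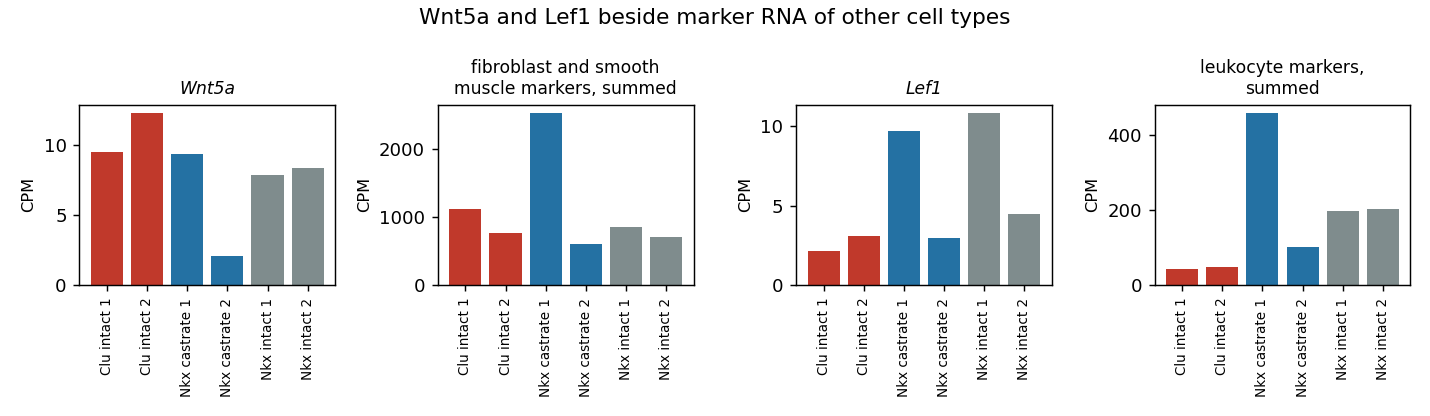
Levels of Wnt5a and Lef1 and summed levels of 14 fibroblast and smooth muscle markers and 15 leukocyte markers, in CPM per library, with bars starting at 0 and coloured by group. Nkx castrate 1 has the tallest marker bars, at 2524 and 458 CPM, and is above Nkx castrate 2 for Wnt5a and Lef1.

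Of the 4 windows that RefSeq gives for Lef1, the most downstream is shown as it holds the Tcf and Lef word most often among the 9 windows found for 5 of the genes (Wnt4, Lgr4, Axin2, Lef1 and Tcf7l2). The other Lef1 windows, all upstream of it, did not hold that word. The window shown covers 250 bases on the plus strand of GRCm38.p6 at chr3:131156044-131156293, and capitals mark the words.

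Lef1 promoter: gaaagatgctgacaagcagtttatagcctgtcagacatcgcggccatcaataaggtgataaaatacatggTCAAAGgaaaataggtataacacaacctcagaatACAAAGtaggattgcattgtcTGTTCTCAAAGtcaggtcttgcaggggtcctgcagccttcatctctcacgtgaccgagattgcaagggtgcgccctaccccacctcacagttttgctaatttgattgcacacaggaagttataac

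The Tcf and Lef word, in the reverse orientation, begins 180, 146 and 120 bases before this start. The steroid receptor word begins 125 bases before it and shares a base with the last of these. The files count reads per gene, so the use of this start was not measured.

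The genes whose pattern over the 6 libraries was most like that of a called Wnt gene were found by Pearson's r of log2 CPM among 9030 genes with a mean of at least 10 CPM. Prob1 (r = 0.997) and Wwc1 (r = 0.996) were nearest to Wnt4. Mtmr1 (r = 0.996) and Rassf9 (r = 0.993) were nearest to Wnt7b, and Pnrc1 (r = 0.999) and Ets2 (r = 0.998) to Axin2. With 6 libraries in 3 groups these values describe a shared order of groups.

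The rest of the pathway was read from 98 other Wnt genes, of which 97 were in the table and 75 were tested. In all, 23 of the 75 were called in at least 1 comparison, and the matching share of all tested genes was not counted. Between Nkx castrate and Nkx intact 6 were higher and 5 lower, where 8.61% of all tested genes were called. Between Clu intact and Nkx intact 5 were higher and 5 lower, where 11.3% of all genes were called, and between Clu intact and Nkx castrate 8 were higher and 8 lower, where 16.9% of all genes were called. Their median log2 fold changes were 0.10, -0.14 and -0.13, against 0.05, -0.008 and -0.003 over all tested genes.

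Among receptors and the R-spondin axis, the ubiquitin ligase genes that remove Frizzled proteins were lowest in the Clu intact libraries. Rnf43 had 66.0 and 64.2 CPM in the Clu intact libraries, 232 and 307 CPM in the Nkx castrate libraries and 88.8 and 98.4 CPM in the Nkx intact libraries. It was 2.88-fold higher in Nkx castrate than in Nkx intact (log2 fold change 1.53, SE 0.19, edgeR Benjamini-Hochberg adjusted p = 0.00393) and 4.14-fold lower in Clu intact than in Nkx castrate (log2 fold change -2.05, SE 0.19, edgeR Benjamini-Hochberg adjusted p = 0.000706). Znrf3 had 69.4 and 58.7 CPM in the Clu intact libraries, 119 and 154 CPM in the Nkx castrate libraries and 132 and 116 CPM in the Nkx intact libraries. Clu intact was lower than both Nkx groups, by log2 fold changes of -0.95 against Nkx intact and -1.09 against Nkx castrate, while the Nkx groups overlapped. Lgr5, a receptor of R-spondins that marks stem cells in several epithelia, had 4.22 and 0.753 CPM in the Clu intact libraries, 19.6 and 47.7 CPM in the Nkx castrate libraries and 3.06 and 10.5 CPM in the Nkx intact libraries. It was lower in Clu intact than in Nkx castrate (log2 fold change -3.74, SE 0.82, edgeR Benjamini-Hochberg adjusted p = 0.0244), a value that was -5.44 without Clu intact 1, -2.97 and not called without Clu intact 2, and -2.95 without Nkx castrate 2.

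The Frizzled genes went in different directions. Fzd4, a receptor also strongly expressed in endothelium, had 70.2 and 55.1 CPM in the Clu intact libraries, 22.7 and 18.2 CPM in the Nkx castrate libraries and 33.4 and 19.4 CPM in the Nkx intact libraries, and was called higher in Clu intact against both. The endothelial marker sums given with Wnt4 were also highest in Clu intact 1, and their part in the Fzd4 values was not tested. Fzd5 had 68.3 and 72.2 CPM in the Clu intact libraries, 26.9 and 31.3 CPM in the Nkx castrate libraries and 46.7 and 40.6 CPM in the Nkx intact libraries. Clu intact over Nkx castrate gave 1.27 on the log2 scale (SE 0.20, edgeR Benjamini-Hochberg adjusted p = 0.00565). Fzd10 had 3.21 and 2.07 CPM in the Clu intact libraries, 12.8 and 37.7 CPM in the Nkx castrate libraries and 1.34 and 0.395 CPM in the Nkx intact libraries. Its log2 fold change of 4.84 for Nkx castrate over Nkx intact was called, and became 3.86 without Nkx castrate 2, 5.95 without Nkx intact 1 and 4.22 without Nkx intact 2. Clu intact over Nkx castrate had a called log2 fold change of -3.25 for Fzd10, and -2.26 without Nkx castrate 2. Also called for Clu intact over Nkx castrate were the co-receptor gene Lrp5, higher at a log2 fold change of 0.82, and the Wnt5a receptor gene Ror1, lower at -1.70.

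**Figure D5:**
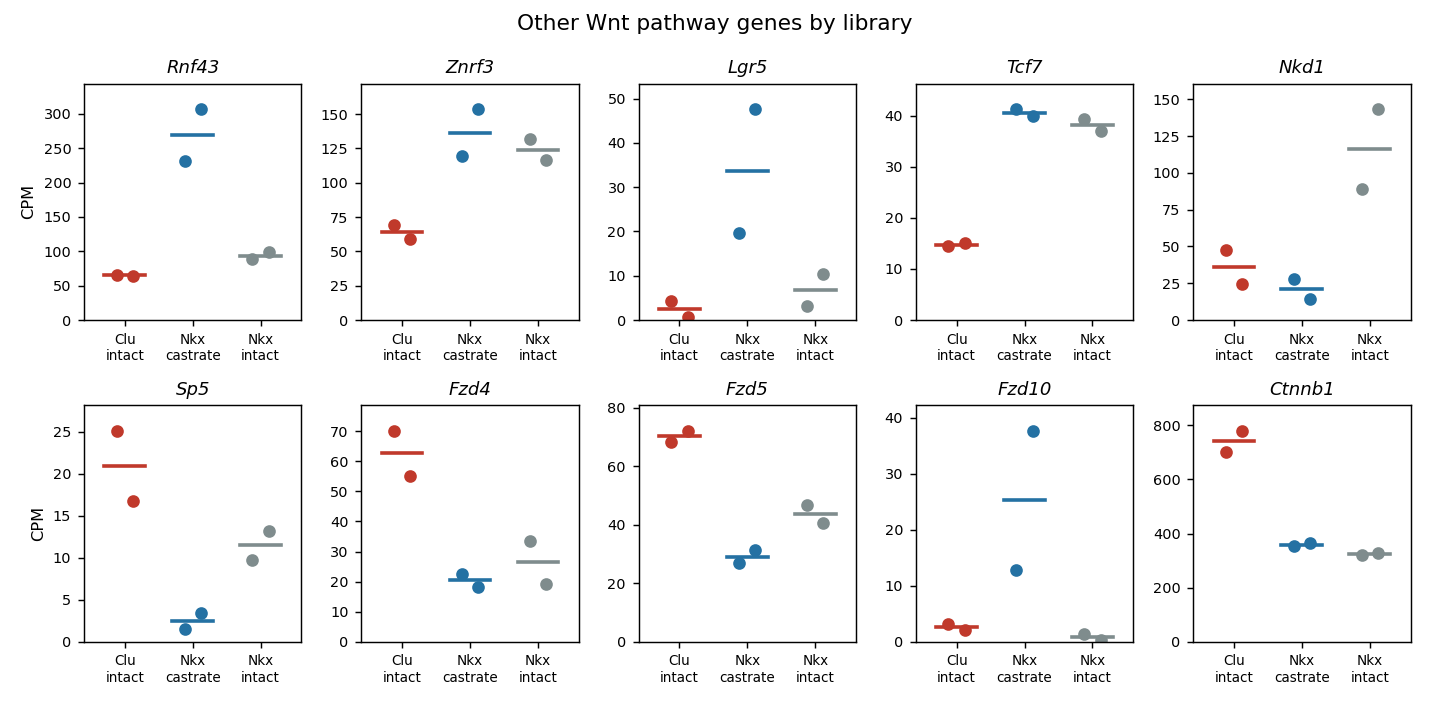
Levels of 10 other called Wnt pathway genes in CPM (vertical axes starting at 0), with each point a library and each bar the mean of the 2 libraries of a group. Rnf43, Lgr5 and Fzd10 are highest in Nkx castrate, Tcf7 and Znrf3 are lowest in Clu intact, and Ctnnb1, Fzd4, Fzd5 and Sp5 are highest in Clu intact.

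In the secretion and ligand lists, Wls, the carrier that brings Wnt proteins to the cell surface, had 169 and 195 CPM in the Clu intact libraries, 65.4 and 80.2 CPM in the Nkx castrate libraries and 137 and 148 CPM in the Nkx intact libraries. It fell in Nkx castrate by 0.97 on the log2 scale against Nkx intact (edgeR Benjamini-Hochberg adjusted p = 0.0173), and was 2.50-fold higher in Clu intact than in Nkx castrate (edgeR Benjamini-Hochberg adjusted p = 0.00308). Tmed5, a cargo receptor of the early secretory route, was lower in Clu intact than in Nkx intact at a log2 fold change of -0.90. Among the other 15 ligands, 7 passed the filter. Wnt5b was higher in Nkx castrate, at 10.2 and 10.7 CPM against 1.72 and 2.77 CPM in Nkx intact, and Wnt9a was lower, at 2.47 and 1.77 CPM in Nkx castrate against 12.1 and 8.69 CPM in Nkx intact. The ligand genes Wnt7a and Wnt8b and the R-spondin gene Rspo4 had no count in any library.

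Inhibitors and nuclear factors also differed. Nkd1, which restrains Dishevelled and is itself a canonical target, had 47.8 and 24.7 CPM in the Clu intact libraries, 27.8 and 14.1 CPM in the Nkx castrate libraries and 88.9 and 143 CPM in the Nkx intact libraries. It was lower than Nkx intact both in Nkx castrate (log2 fold change -2.46) and in Clu intact (log2 fold change -1.68), so its order over the groups was not that of Axin2. Sp5, another canonical target, had 25.1 and 16.7 CPM in the Clu intact libraries, 1.57 and 3.40 CPM in the Nkx castrate libraries and 9.76 and 13.2 CPM in the Nkx intact libraries. It was lower in Nkx castrate than in Nkx intact (log2 fold change -2.22, and -2.87 without Nkx castrate 2) and higher in Clu intact than in Nkx castrate (log2 fold change 3.08, and 3.74 without Nkx castrate 2), so the order of its group levels was the reverse of that of Axin2. Tcf7, a Tcf factor also made by T cells, had 14.5 and 15.1 CPM in the Clu intact libraries, 41.3 and 39.9 CPM in the Nkx castrate libraries and 39.3 and 37.0 CPM in the Nkx intact libraries, and was called lower in Clu intact against both. The leukocyte marker sums of these libraries are given with Lef1, and their part in the Tcf7 values was not tested. The beta-catenin gene Ctnnb1 had 703 and 780 CPM in the Clu intact libraries, 353 and 366 CPM in the Nkx castrate libraries and 322 and 327 CPM in the Nkx intact libraries, called higher in Clu intact at log2 fold changes of 1.05 over Nkx castrate and 1.19 over Nkx intact. In the same cascade the kinase gene Csnk1e was lower in Clu intact than in Nkx castrate, at a log2 fold change of -1.20.

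Genes that Wnt signalling can induce, but that many other signals also control, split by gene. The cyclin gene Ccnd1 had 176 and 227 CPM in the Clu intact libraries, 54.8 and 46.3 CPM in the Nkx castrate libraries and 84.4 and 89.6 CPM in the Nkx intact libraries, and all 3 comparisons were called. Myc went the other way, with 108 and 86.2 CPM in the Clu intact libraries, 249.7 and 309 CPM in the Nkx castrate libraries and 198 and 199 CPM in the Nkx intact libraries, and was called lower in Clu intact against both. The adhesion receptor gene Cd44 was called higher than Nkx intact in Clu intact (log2 fold change 2.06) and in Nkx castrate (log2 fold change 1.24), and the progenitor factor gene Sox9 in Nkx castrate (log2 fold change 1.72). The co-repressor gene Tle3 was also called higher than Nkx intact, at log2 fold changes of 1.16 in Clu intact and 0.88 in Nkx castrate, and Tle4 was higher in Clu intact than in Nkx castrate at 0.81.

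Leaving out a library ended many of these calls, as it did over all genes, where the 1192 calls for Nkx castrate over Nkx intact became 286 without Nkx intact 1 and 209 without Nkx intact 2. The log2 fold change of Rnf43 in that comparison stayed within 1.30 to 1.72, and that of Tcf7 in Clu intact over Nkx intact within -1.41 to -1.31, while Fzd10, Lgr5 and Sp5 moved as given above. Between Nkx castrate and Nkx intact, none of the 11 other Wnt genes was still called by edgeR without Nkx intact 1 or without Nkx intact 2, and Cd44, Fzd10, Nkd1, Rnf43, Sox9 and Wls were the 6 still called without either Clu intact library. For Clu intact against Nkx intact, Cd44 was still called without each library in turn. Between Clu intact and Nkx castrate, the genes called without each library in turn were Ccnd1, Myc, Rnf43, Sp5 and Wls.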

How the data were processed

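Per the labels' protocols, libraries were made from 2 ng of total RNA of the sorted cells with a low-input stranded kit. The deposited values are raw counts, whole numbers for each gene symbol and library, and 4599 of the 24498 genes had no count. The submitters' processing notes name FastQC 0.11.9, STAR 2.7.9a, Subread 2.0.1, featureCounts and GRCm39. How strand, shared reads and molecular identifiers were handled, and with which annotation, is not given in the sources used here. Wnt5a, Wnt7b, Fzd6, Axin2 and Lef1 share exon bases with a gene on the opposite strand in GENCODE M21 (GRCm38), so their counts are uncertain if strand was ignored. Exon lengths come from the same annotation.

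The 10 genes, the other lists and the naming rule were chosen with earlier results of these data known. The rule named all 10 genes, and per other list and comparison up to 4 called genes in each direction with the largest change and a mean of at least 1 CPM, and for each called gene of the 10 the 2 genes most like it. In R 4.3.3, edgeR 4.0.16 filtered genes (filterByExpr, 13846 kept), scaled them by TMM and fitted a mean for each of the 3 groups over all 6 libraries (glmQLFit, 3 residual and 4.86 prior degrees of freedom). Tests were two-sided, adjusted by Benjamini-Hochberg over all tested genes. Fold changes are first-named over second-named group, their SE comes from the model, and 95% intervals use the t distribution. Alternatives were other scaling and filters, a fit of only the groups compared, limma 3.58.1 with voom, DESeq2 1.42.0, a replicate block, removal of 16 ribosomal RNA genes and leaving out each library. The steps were tested on simulated data. Libraries of a group differed by more than counting error, with an edgeR common coefficient of variation of 33.7%. The 2 libraries of a group correlated across tested genes at r = 0.977 for Clu intact, 0.932 for Nkx castrate and 0.969 for Nkx intact. The fit pools its estimate of spread over the 3 groups, and values rest on 2 libraries a group.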

Additional observations from a re-analysis of the deposited data

How the results depend on the processing

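Wnt4 (against both Nkx groups) and Axin2 (Clu intact against Nkx castrate) kept their direction and call in all alternatives run, and Wnt7b (Clu intact against Nkx intact) lost its call without either library of those groups. Of 300 values of the 10 genes under other settings, 282 kept their direction and side of the threshold, and of 180 with a library left out, 154 did. Between Nkx castrate and Nkx intact, the number of the 10 genes called went to 1 (Axin2) with DESeq2 size factors, upper-quartile factors, library totals only, no filter, DESeq2 or the replicate block, and lay between 0 and 3 with a library left out. It lay between 1 and 3 for Clu intact against Nkx intact and between 2 and 4 for Clu intact against Nkx castrate with a library left out. The other Wnt genes called between Nkx castrate and Nkx intact, 11 in all, numbered 23 without a filter, 6 with only the groups compared, 20 with DESeq2, 7 with limma-voom, and 0 to 27 with a library left out. Between Clu intact and Nkx intact, 10 in all, they numbered 22 without a filter, 31 with only the groups compared, 17 with DESeq2, and 1 to 31 with a library left out. Between Clu intact and Nkx castrate, 16 in all, they numbered 25 without a filter and 6 to 30 with a library left out. Dropping the filter leaves 19899 genes in the fit, and the cause of the other moves was not tested. Over all genes, the 1192 calls for Nkx castrate over Nkx intact became 2300 without a filter, 671 with only the groups compared and 2015 with DESeq2, the 1563 for Clu intact over Nkx intact became 2665, 3309 and 2457, and the 2342 for Clu intact over Nkx castrate became 3518 without a filter. Without a filter the median log2 fold change of all genes was 0.18 for Nkx castrate over Nkx intact and -0.19 for Clu intact over Nkx castrate. With a library left out, the calls over all genes ranged from 209 to 2412, from 391 to 3351 and from 687 to 3854 in the order of these comparisons. A fit without 1 library assumes that the lone one left in its group varies like the others.

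Directions that turned belonged to differences that were not called. For Clu intact over Nkx castrate, the log2 fold change of Fzd6 was 0.0503 with library totals only and 0.02 with limma-voom. That of Lrp6 was -0.018 with DESeq2 size factors, -0.0496 with upper-quartile factors, -0.0014 at a minimum of 1 CPM in 2 libraries, -0.0143 with only the groups compared and -0.0179 with DESeq2, and that of Wnt10a was -0.0428 with upper-quartile factors. With a library left out, Fzd6 ranged from -0.28 to 0.31, Lrp6 from -0.0331 to 0.0473 and Wnt10a from -0.63 to 1.40 in that comparison. Tcf7l2 ranged from -0.18 to 0.27 for Clu intact over Nkx intact. For Nkx castrate over Nkx intact, Fzd6 ranged from -0.0362 to 0.56, Lef1 from -1.36 to 0.50, Wnt4 from -0.38 to 0.14 and Wnt5a from -1.96 to 0.20.

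The labels do not tie the replicate numbers to an animal or day, so the numbers were not treated as pairs. Same-numbered libraries deviated from their group means with correlations across genes of 0.263 (Clu intact with Nkx castrate), 0.059 (Clu intact with Nkx intact) and 0.105 (Nkx castrate with Nkx intact). These values do not settle whether the libraries were paired. The block called Axin2 higher in Nkx castrate than in Nkx intact (edgeR Benjamini-Hochberg adjusted p = 0.0422) and otherwise changed no call of the 10 genes. With it the other Wnt genes called were 13 for Nkx castrate over Nkx intact, 10 for Clu intact over Nkx intact and 18 for Clu intact over Nkx castrate. Over all genes, the calls in that order were 1511, 1964 and 2779 with the block, against 1192, 1563 and 2342 without it. Low counts limit Wnt10a and Lef1 most.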
